A study of Homo sapiens with 4 samples.

Results

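RKN and SKUT1 are established human leiomyosarcoma cell lines, and their poly(A) RNA was compared gene by gene. Of 23577 usable genes, 12821 (54.4%) reached an FPKM of 1 in at least 1 of the lines and were kept. Just inside the limit lay TENM2 (1.0006 in RKN and 0.342 in SKUT1), and just outside it MX2 (0.9997 in RKN and 0.548 in SKUT1). FPKM is the number of fragments per kilobase of transcript, scaled to the size of the library. The pair was chosen as the furthest apart in the series, so its distance is a description and supports nothing.

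The series holds 4 libraries, 1 each from the lines RKN, SKLMS1, SKN and SKUT1, and only the first and the last enter the comparison. Both cultures were untreated and were kept in DMEM containing 10% FBS, glutamine and antibiotics, and single-end reads of 75 bp were sequenced. Genotype, passage and culture density are not part of the labels used here. With 1 library per line there is no replicate check, so all differences are sizes without a test.

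Leiomyosarcomas are malignant tumours with features of smooth muscle. Smooth muscle cells share a contractile set of genes (actins, myosin light chain kinase, tropomyosins, calponins, transgelin) that is driven by serum response factor and its coactivators. The same cells can also make abundant extracellular matrix, and fibroblasts, pericytes and synthetic smooth muscle cells overlap in the matrix genes that they express. Contraction, matrix synthesis and proliferation are commonly described as separable states of this lineage.

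Differences are given as log2(FPKM + 1) in RKN minus the same in SKUT1, so a negative value means higher in SKUT1, and 2 on this scale is called 4-fold. The added 1 understates the difference of low genes. As deposited, 690 of the 12821 (5.38%) were 4-fold higher in RKN and 1397 (10.9%) 4-fold higher in SKUT1, a share of 66.9% for SKUT1. The deposited columns summed to 446954 in RKN and 619584 in SKUT1, a ratio of 1.39. After both columns were scaled to equal sums, the counts were 1050 (8.19%) for RKN and 1129 (8.81%) for SKUT1, a share of 51.8%. The median difference of all kept genes was -0.01 as deposited and 0.41 with equal sums. Equal sums raises RKN and lowers SKUT1, so by construction all 690 RKN genes remained 4-fold apart and no gene could join the SKUT1 side. On that scale 360 genes joined the RKN side, and 1129 of the 1397 SKUT1 genes remained.

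Most of the gap between the sums, 172631 in all, lay in genes that were 4-fold apart. The 1397 genes higher in SKUT1 summed to 210139 there and 13271 in RKN. The 690 higher in RKN summed to 38295 there and 2786 in SKUT1. The 10734 other genes were near the same total, 394517 in RKN and 405982 in SKUT1. Of 4949 genes at 10 or more in both lines, 67 were 4-fold higher in RKN and 229 in SKUT1 as deposited, and 153 and 142 with equal sums. Counts at 2-fold were 2453 (19.1%) for RKN and 3135 (24.5%) for SKUT1 as deposited, and 3820 (29.8%) and 2352 (18.3%) with equal sums. The values do not show which scaling is the better one, so where the median of a gene list is described, it is given on both. Some lists are described by counts alone, and counts are as deposited unless stated otherwise.

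**Figure D1:**
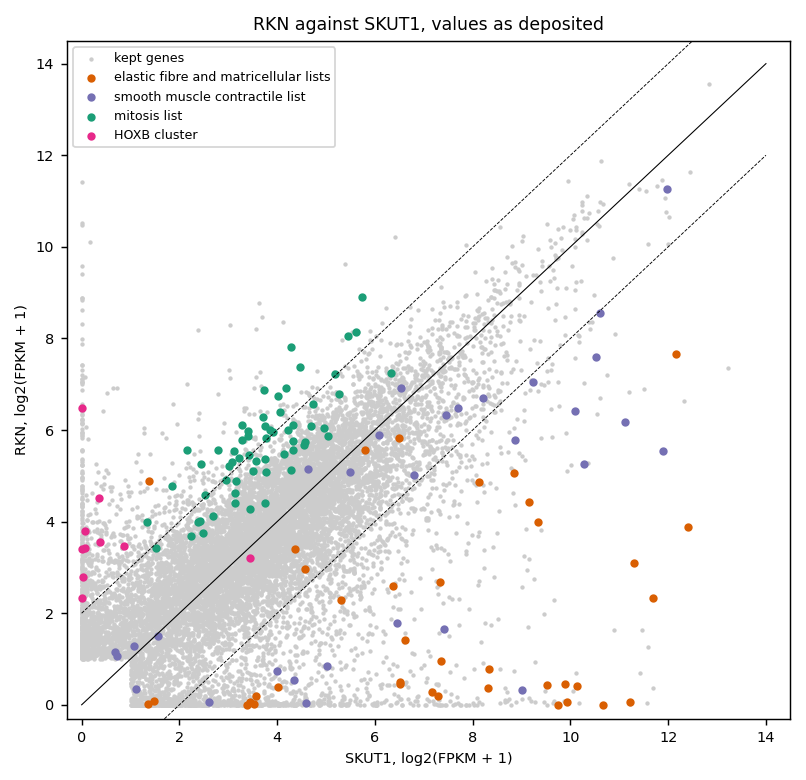
Level of each of the 12821 kept genes in RKN (vertical axis) against SKUT1 (horizontal axis), both as log2(FPKM + 1) as deposited, with the line of equality (solid), the 4-fold lines (dashed) and 4 sets of genes in colour. Most elastic fibre and matricellular genes lie far below the diagonal, mitosis genes lie along the upper 4-fold line, and most HOXB genes lie at the left edge.

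Read totals are not in the table. Estimated from the steps between low values, they were about 33700000 reads in RKN and 24200000 in SKUT1, at which 1 read on a transcript of 2 kb is worth an FPKM of 0.0148 and 0.0207. Levels near these steps rest on very few reads and are to be read as low rather than as precise. Of the kept genes, 270 were listed at 0 in RKN and 254 in SKUT1. A 0 can be a failed estimate: RPS28, which encodes a part of every cytosolic ribosome, was 146 in RKN and was listed at 0 in SKUT1. COL1A1, a chain of type I collagen, was 7.06 in RKN and was listed at 0 in SKUT1, and FN1, which encodes fibronectin, was 0.266 in RKN and listed at 0 in SKUT1. No direction is drawn for these 3 genes. Of the 690 genes higher in RKN, 151 were listed at 0 in SKUT1, and of the 1397 higher in SKUT1, 165 were listed at 0 in RKN.

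Defining markers of unrelated cell types were below an FPKM of 1 in both libraries, except CD14 (1.64) and CDH1 (1.20) in SKUT1. The 5 endothelial markers reached at most 0.0209 in RKN and 0.293 in SKUT1, and the 5 immune markers at most 0.793 and 1.64. The 4 neural markers reached at most 0.305 and 0.256, and the 5 skeletal muscle markers at most 0.518 and 0.127. Of 6 epithelial markers the highest was CLDN4 in RKN (0.696) and CDH1 in SKUT1 (1.20). Wider lists, which hold genes that these cell types share with others, reached higher levels. The 9 kept neural genes summed to 301 FPKM in RKN and 445 in SKUT1, most of it from TUBB3 (203 in RKN and 143 in SKUT1) and UCHL1 (75.2 in RKN and 241 in SKUT1). The 5 immune genes summed to 6.15 and 82.2, with CD68 at 4.76 in RKN and 75.3 in SKUT1. The 8 endothelial genes summed to 24.4 and 57.7, with TEK at 0.0195 in RKN and 39.6 in SKUT1. The 6 skeletal and cardiac muscle genes summed to 104 and 15.01, with TNNT1, a troponin, at 93.8 in RKN and 2.63 in SKUT1. Their part in the differences was not tested. Markers of smooth muscle, whose features leiomyosarcomas have, were at unequal levels: the 13 summed to 650.3 FPKM in RKN and 10122 in SKUT1. The 12 fibroblast markers summed to 289.6 in RKN and 10501 in SKUT1. The 6 pericyte markers were closer, at 141 in RKN and 216 in SKUT1. The highest of them was RGS5 in RKN (127) and NOTCH3 in SKUT1 (108). Fewer cells with a programme and less RNA per cell cannot be told apart in bulk RNA.

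Most of the genes with the largest differences toward SKUT1 encode secreted proteins. PTX3, a pattern recognition protein that also organizes hyaluronan matrix, was 0.0342 in RKN and 3047 in SKUT1, a difference of -11.53. IGFBP7, an insulin-like growth factor binding protein, was 0.289 in RKN and 3300.2 in SKUT1 (-11.32). GREM1, an antagonist of bone morphogenetic proteins (BMPs), was 0.00795 in RKN and 2389.8 in SKUT1 (-11.21). All 3 were below 1 in RKN and among the abundant transcripts of SKUT1. SULF1, which edits heparan sulfate, was 0.0277 in RKN and 797 in SKUT1 (-9.60).

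Of the 10 genes with the largest difference toward SKUT1 among those at 10 or more in both lines, several also encode secreted proteins, and others, such as TAGLN, belong to the smooth muscle contractile list. TGFBI, a matrix protein that binds integrins, was 13.8 in RKN and 5438 in SKUT1, 394-fold higher in SKUT1. TIMP1, an inhibitor of matrix metalloproteinases, was 162 in RKN and 9606 in SKUT1 (59.4-fold). LOXL2, which crosslinks collagen, was 14.99 in RKN and 643 in SKUT1 (42.9-fold). These ratios are of FPKM as deposited and are smaller by the factor of 1.39 with equal sums. LAMC1, a laminin chain of most basement membranes, was 13.4 in RKN and 541 in SKUT1 (40.3-fold). MFGE8, another secreted ligand of integrins, was 38.03 in RKN and 1315 in SKUT1 (34.6-fold).

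**Figure D2:**
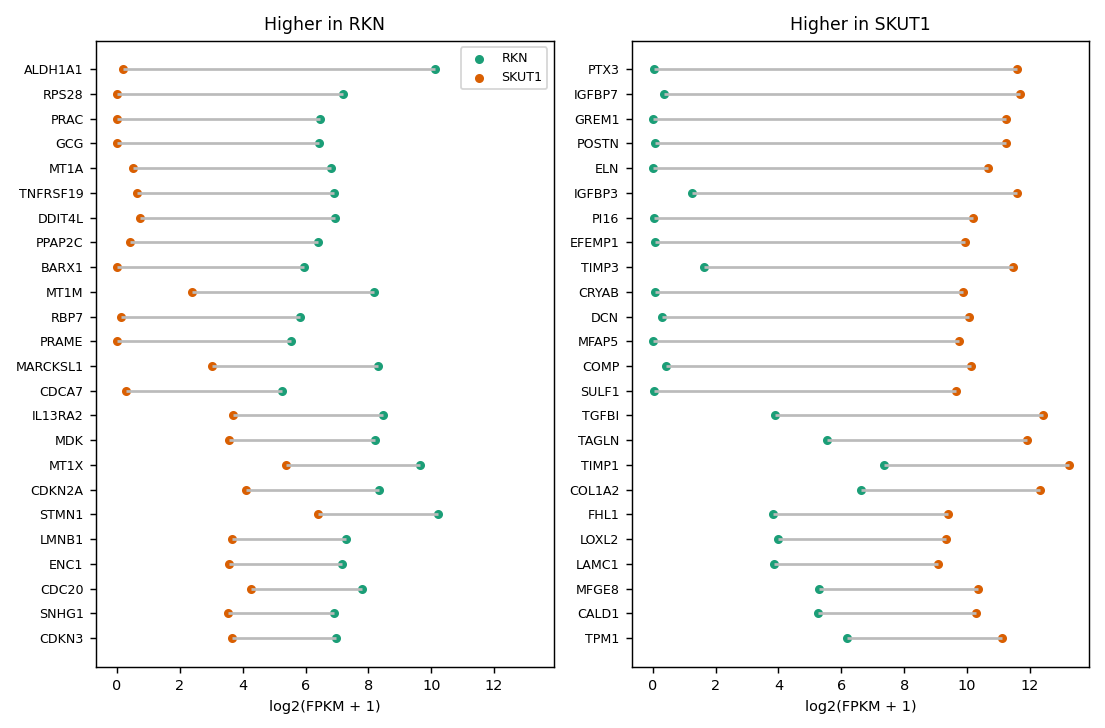
Levels of 48 genes in RKN (green) and SKUT1 (orange) as log2(FPKM + 1), as deposited, with a line joining the values of a gene. In each panel the upper 14 genes are from the 15 with the largest difference among genes at an FPKM of 10 or more in the higher line, the lower 10 have the largest among genes at 10 or more in both, and the longest line in the SKUT1 panel, that of PTX3, exceeds the longest in the RKN panel, that of ALDH1A1.

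Elastic fibres are built from elastin on a scaffold of fibrillins, fibulins and latent TGF-beta binding proteins and are fixed by lysyl oxidases. Of 23 kept members of this list, 19 were 4-fold higher in SKUT1, against 10.9% of all kept genes, and 1 in RKN. The median difference was -5.33 as deposited and -4.87 with equal sums. Elastin itself, ELN, was listed at 0 in RKN and stood at 1624 in SKUT1. FBN1, the main microfibril protein, was 0.353 in RKN and 729.7 in SKUT1 (-9.08). EFEMP1, a fibulin, was 0.0416 in RKN and 977 in SKUT1 (-9.88). Other members kept a clear level in RKN: the fibulin FBLN1 was 55.7 in RKN and 89.1 in SKUT1 and the microfibril protein MFAP2 was 46.3 in RKN and 54.97 in SKUT1, both less than 2-fold apart and named after their values were seen. LOX, the crosslinking oxidase, was 0.375 in RKN and 953 in SKUT1 (-9.44). LTBP2, a latent TGF-beta binding protein, was 0.709 in RKN and 323 in SKUT1 (-7.57). Its relative LTBP4, the member 2-fold higher in RKN, was 28.7 in RKN and 1.59 in SKUT1 (3.52) and is named after its value was seen.

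Matricellular proteins signal from the matrix without building it. All 15 kept genes of this list were 2-fold higher in SKUT1, against 24.5% of all kept genes (median -4.72, -4.26 with equal sums). POSTN, periostin, was 0.0406 in RKN and 2389.8 in SKUT1 (-11.17). COMP, cartilage oligomeric matrix protein, was 0.330 in RKN and 1119.9 in SKUT1 (-9.72). CTGF, connective tissue growth factor, was 4.03 in RKN and 3279 in SKUT1 (-9.35), and it kept a measurable level in RKN, as did thrombospondin. THBS1, that thrombospondin, was 7.50 in RKN and 2534 in SKUT1 (-8.22).

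Proteoglycans of the matrix were lower in RKN as well. Small leucine-rich proteoglycans space collagen fibrils, and 9 of 10 were 2-fold higher in SKUT1 and none in RKN (median -5.18, -4.97 with equal sums). Decorin, DCN, was 0.238 in RKN and 1064 in SKUT1 (-9.75). Biglycan, BGN, was 0.0397 in RKN and 618 in SKUT1 (-9.22), and lumican, LUM, was 0.0620 in RKN and 415 in SKUT1 (-8.61). In the hyaluronan and aggregating proteoglycan list, 11 of 15 were 4-fold higher in SKUT1, among them versican, VCAN (0.0223 in RKN and 257 in SKUT1). Among syndecans and glypicans, which anchor heparan sulfate at the cell surface, 6 of 10 were 2-fold higher in SKUT1 and 2 in RKN. SDC2, a syndecan, was 0.415 in RKN and 98.8 in SKUT1.

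Fibrillar collagens were mixed in level rather than absent from RKN. Of 8 kept genes, 6 were 2-fold higher in SKUT1 and 2 in RKN, counting COL1A1 with its listed 0 (median -3.13, -2.81 with equal sums). COL1A2, the partner chain of COL1A1 in type I collagen, was 98.3 in RKN and 5096 in SKUT1 (51.8-fold). COL3A1, of type III collagen, was 80.6 in RKN and 1498 in SKUT1 (18.6-fold). COL5A2, which pairs with COL5A1 in type V collagen, was 97.7 in RKN and 314 in SKUT1 (3.21-fold). These 3 were the members above 10 FPKM in RKN. COL5A1 was 8.04 in RKN and 566 in SKUT1 (-5.97). COL5A3 was 0.00992 in RKN and 48.3 in SKUT1, and COL11A1 was 0.0132 in RKN and 3.23 in SKUT1. COL27A1 was the other way round, 2.30 in RKN and 0.349 in SKUT1.

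Other collagens and the enzymes that mature them followed the same direction. The remaining interstitial collagens were 4-fold higher in SKUT1 in 11 of 17 genes and in RKN in 2. COL6A1, of the microfibrillar type VI, was 33.6 in RKN and 977 in SKUT1, and COL12A1, which binds fibril surfaces, was 0.872 in RKN and 297 in SKUT1. Of 20 processing genes, 17 were 2-fold higher in SKUT1 and none in RKN, with a smaller median (-2.25, -1.80 with equal sums). PLOD2, a lysyl hydroxylase, was 0.346 in RKN and 157 in SKUT1 (-6.87). PCOLCE, the enhancer of procollagen cleavage, was 3.96 in RKN and 209.7 in SKUT1 (-5.41). P4HA2, a prolyl hydroxylase subunit, was 16.04 in RKN and 183 in SKUT1 (-3.43). Basement membrane genes were 4-fold higher in SKUT1 in 11 of 16 (median -3.28, -2.97 with equal sums). COL4A1, the main network collagen there, was 2.98 in RKN and 706 in SKUT1, and the nidogen NID2 was 0.0979 in RKN and 102 in SKUT1.

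Proteases and their inhibitors were both higher in SKUT1. All 5 kept metalloproteinase inhibitors were 2-fold higher there, TIMP3 being 2.08 in RKN and 2838 in SKUT1. TIMP2 was 90.7 in RKN and 871 in SKUT1, and RECK, a membrane-anchored inhibitor, was 4.50 in RKN and 106 in SKUT1. TIMP4 was 0.145 in RKN and 1.86 in SKUT1. Their targets were more mixed, with 5 of 9 matrix metalloproteinases 2-fold higher in SKUT1 and 2 in RKN. The gelatinase MMP2 was 0.925 in RKN and 616 in SKUT1, and MMP14, its membrane-bound activator, was 37.2 in RKN and 292 in SKUT1. MMP15 was 3.45 in RKN and 1.03 in SKUT1, one of the few on the RKN side. ADAMTS proteases were 2-fold higher in SKUT1 in 12 of 14 genes and in RKN in none. ADAMTS1, which cleaves aggregating proteoglycans, was 0.0466 in RKN and 707 in SKUT1. In the plasminogen system 10 of 14 were 4-fold higher in SKUT1, inhibitors and activators alike. SERPINE2, an inhibitor, was 2.11 in RKN and 1901 in SKUT1, and PLAT, the tissue activator, was 10.6 in RKN and 240.2 in SKUT1.

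Receptors for matrix and for neighbouring cells were also lower in RKN. Of 16 integrin genes, 15 were 2-fold higher in SKUT1 and none in RKN (median -3.29, -2.96 with equal sums). ITGA11, a collagen receptor subunit, was 0.0432 in RKN and 278 in SKUT1. ITGA5, of the fibronectin receptor, was 12.6 in RKN and 280.0 in SKUT1. ITGAV, of the vitronectin receptors, was 6.75 in RKN and 143 in SKUT1. Each was far lower in RKN, though ITGA5 and ITGAV were well above 1 there. Cadherins and protocadherins outside the clusters were 2-fold higher in SKUT1 in 11 of 15 and in RKN in 3. N-cadherin, CDH2, was 0.825 in RKN and 128 in SKUT1, and CDH11, the cadherin of mesenchymal cells, was 0.181 in RKN and 188 in SKUT1. The gamma protocadherins, whose transcripts share exons so that their split is uncertain, formed a run of 11 neighbouring kept genes on chromosome 5 that were all 2-fold higher in SKUT1.

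The smooth muscle contractile list was higher in SKUT1, though with a wide spread among its members. Of 30 kept genes, 20 were 2-fold and 16 4-fold higher in SKUT1, and none was 2-fold higher in RKN. The median was -2.12 (-1.65 with equal sums). TAGLN, transgelin, was 45.5 in RKN and 3816 in SKUT1 (83.8-fold). CALD1, caldesmon, was 37.1 in RKN and 1246 in SKUT1 (33.6-fold), and TPM1, tropomyosin, was 70.9 in RKN and 2205 in SKUT1 (31.1-fold). These were abundant in SKUT1 and clearly present in RKN. CNN1, calponin, was 2.45 in RKN and 86.4 in SKUT1 (-4.66). FLNC, the muscle filamin, was 2.14 in RKN and 170.2 in SKUT1. HSPB6, a small heat shock protein of muscle, was 0.260 in RKN and 512 in SKUT1.

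The other defining markers, named for their place in the marker set and not for size, covered a wide range. ACTA2, smooth muscle alpha actin, was 84.7 in RKN and 1085 in SKUT1. ACTG2, the enteric smooth muscle actin, was 0.449 in RKN and 19.4 in SKUT1, and LMOD1, leiomodin, was 0.661 in RKN and 14.9 in SKUT1. MYH11, smooth muscle myosin and a late marker, was 0.268 in RKN and 1.15 in SKUT1. DES, desmin, was 1.10 in RKN and 0.660 in SKUT1. Both late markers were thus low in either line. SMTN, smoothelin, was 32.9 in RKN and 44.1 in SKUT1, less than 2-fold apart.

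Promoters of this list are shown because serum response factor binds a motif called the CArG box in many contractile genes. In RefSeq promoters of GRCh38.p14, from 250 bases before to 50 bases after the start, the CArG box was found on either strand in 4 of 25 contractile promoters (16%) and in 1.06% of the 9316 promoters matched to kept genes. The 4 genes were ACTG2, CNN2, MYLK and FLNA. MYLK, the kinase of myosin light chain, which starts contraction, was 0.805 in RKN and 31.5 in SKUT1. FLNA, a filamin that crosslinks actin, was 131 in RKN and 602 in SKUT1. The promoters of MYLK (chr3:123620499-123620798, minus strand) and FLNA (chrX:154374585-154374884, minus strand) are printed 5′ to 3′ on the gene's strand with the match in capitals. In both it begins at position -94, counted from the start.
MYLK: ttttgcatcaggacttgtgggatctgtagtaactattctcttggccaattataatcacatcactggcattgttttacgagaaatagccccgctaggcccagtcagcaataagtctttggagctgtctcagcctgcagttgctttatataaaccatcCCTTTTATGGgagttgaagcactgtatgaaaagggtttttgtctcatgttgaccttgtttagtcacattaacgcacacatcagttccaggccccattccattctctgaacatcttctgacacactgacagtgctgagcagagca
FLNA: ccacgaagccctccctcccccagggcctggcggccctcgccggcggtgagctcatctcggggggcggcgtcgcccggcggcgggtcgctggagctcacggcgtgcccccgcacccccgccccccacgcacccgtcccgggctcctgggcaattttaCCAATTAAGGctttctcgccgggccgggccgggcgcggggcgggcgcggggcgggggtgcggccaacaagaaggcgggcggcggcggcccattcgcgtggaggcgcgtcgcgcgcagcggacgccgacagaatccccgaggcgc
A match is a description of these letters only, and most contractile genes had none in this window.

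Transcription factors of smooth muscle were closer together than the contractile genes. Of 31 kept members, 15 were 2-fold higher in SKUT1 and 5 in RKN (median -0.86, -0.62 with equal sums), so the list as a whole leaned to SKUT1 without a median of 1. PRRX1, a mesenchymal homeobox factor, was 0.117 in RKN and 115 in SKUT1. FHL1, a LIM protein of muscle, was 13.1 in RKN and 678 in SKUT1 (51.9-fold), and its relative FHL2 was 42.3 in RKN and 518 in SKUT1 (12.2-fold). Small heat shock proteins were 4-fold higher in SKUT1 in 5 of 7 genes. CRYAB, alpha-B crystallin, was 0.0612 in RKN and 936 in SKUT1, HSPB7 was 0.0221 in RKN and 378 in SKUT1, and HSPB8 was 1.95 in RKN and 57.5 in SKUT1. HSPB2, the neighbour of CRYAB in the genome, was listed at 0 in RKN and stood at 64.4 in SKUT1. The ubiquitous HSPB1 was 525 in RKN and 672 in SKUT1, and HSPB11 was 105 in RKN and 58.7 in SKUT1 (0.83, 1.30 with equal sums), so HSPB11 was 2-fold higher in RKN on the second scale alone.

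Caveolae and the dystrophin complex, both prominent at the smooth muscle membrane, leaned to SKUT1. Caveolar genes were 2-fold higher there in 9 of 13 and in RKN in none (median -1.44, -1.06 with equal sums). CAV1, caveolin, was 132 in RKN and 596 in SKUT1 (4.50-fold), and PTRF, a cavin, was 189.7 in RKN and 747 in SKUT1 (3.94-fold). PRKCDBP, another cavin, was listed at 0 in RKN and stood at 217 in SKUT1. Of 17 dystrophin complex genes 11 were 2-fold higher in SKUT1 and 1 in RKN, and the median of -1.30 was -0.97 with equal sums. DMD, dystrophin, was 0.00680 in RKN and 10.1 in SKUT1, and SGCD, a sarcoglycan, was listed at 0 in RKN and stood at 10.3 in SKUT1.

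Fibroblast markers followed the matrix, with which they share members such as DCN, LUM and MFAP5. Of 24 kept genes, 17 were 4-fold higher in SKUT1 and 2 in RKN (median -4.00, -3.69 with equal sums). PI16, a marker of adventitial fibroblasts, was 0.0315 in RKN and 1155 in SKUT1. CD248, endosialin, was 0.0630 in RKN and 584 in SKUT1, and ENG, endoglin, was 0.109 in RKN and 566 in SKUT1. Pericyte genes were 4-fold higher in SKUT1 in 7 of 11. NOTCH3, a Notch receptor of mural cells, was 1.20 in RKN and 108 in SKUT1, and PDGFRB, the PDGF receptor that recruits pericytes, was 1.60 in RKN and 70.7 in SKUT1. RGS5, also a pericyte gene, stood in the other direction, 127 in RKN and 3.48 in SKUT1.

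Epithelial genes and keratins were scattered over both lines. Among the wider epithelial list, 4 of 9 kept genes were 4-fold higher in RKN and 1 in SKUT1. SPINT1, a protease inhibitor of epithelia, was 14.9 in RKN and 0.250 in SKUT1. SPINT2, the relative of SPINT1, was 0.854 in RKN and 8.54 in SKUT1. Keratins were 4-fold higher in SKUT1 in 6 of 15 and in RKN in 2. KRT14 was 0.0414 in RKN and 474 in SKUT1 and KRT7 was 0.257 in RKN and 141 in SKUT1, while KRT23 was 14.8 in RKN and 0.168 in SKUT1. Keratins share sequence, so their split is uncertain.

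**Figure D3:**
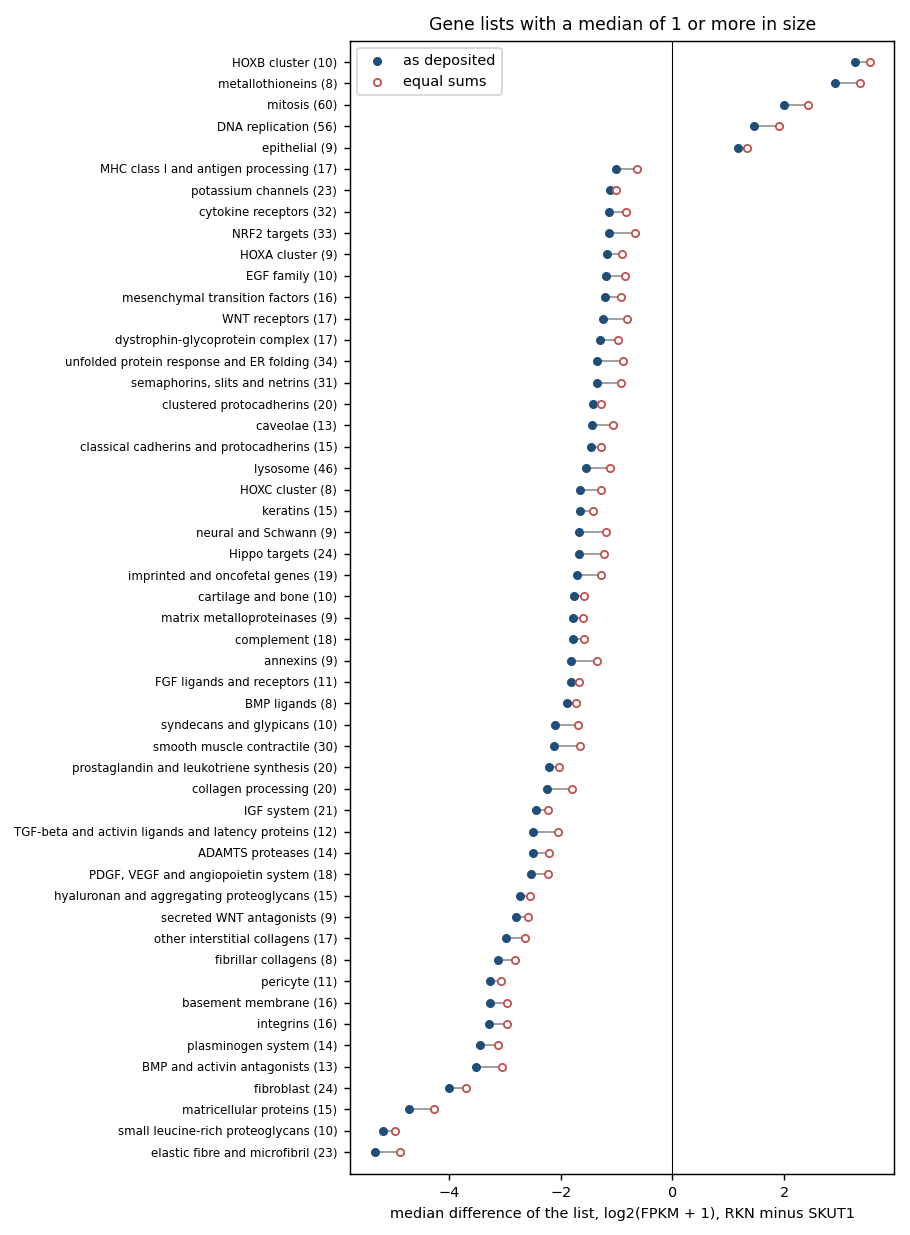
Median difference of each gene list with at least 8 kept genes and a median of 1 or more in size, RKN minus SKUT1 on the log2(FPKM + 1) scale, as deposited (filled) and with equal sums (open), with the number of kept genes in brackets. Of the 52 lists 47 lie on the SKUT1 side. Equal sums moves every point toward RKN by construction, and it took none across 0.

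Secreted regulators of growth factors were among the genes far higher in SKUT1. BMP and activin ligands are held in check by secreted antagonists, of which 9 of 13 were 4-fold higher in SKUT1 (median -3.51, -3.06 with equal sums). FST, follistatin, was listed at 0 in RKN and stood at 165 in SKUT1. INHBA, the activin subunit that follistatin binds, was listed at 0 in RKN and stood at 159.7 in SKUT1. Antagonist and ligand thus stood on the same side. Of 8 kept BMP ligands, 5 were 2-fold higher in SKUT1 and 2 in RKN (median -1.89, -1.73 with equal sums). BMP6 was 0.0317 in RKN and 62.1 in SKUT1, while BMP5 was 16.02 in RKN and was listed at 0 in SKUT1. Of 24 receptors and SMADs, 11 were 2-fold higher in SKUT1 and 3 in RKN (median -0.79, -0.45 with equal sums). TGFBR2, the type II receptor of TGF-beta, was 0.864 in RKN and 81.6 in SKUT1. The inhibitory SMAD7, a feedback target of TGF-beta, was 0.723 in RKN and 38.7 in SKUT1.

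The WNT pathway was split by role. Of 17 receptor genes, 11 were 2-fold higher in SKUT1 and 3 in RKN (median -1.24, -0.81 with equal sums). The Frizzled receptor FZD7 was 2.94 in RKN and 42.02 in SKUT1, and FZD4 was 1.07 in RKN and 26.6 in SKUT1. Secreted antagonists were 4-fold higher in SKUT1 in 5 of 9. DKK1, which blocks the coreceptor, was 4.95 in RKN and 517 in SKUT1. Feedback targets of WNT were not one-sided, 6 of 12 being 2-fold higher in RKN and 4 in SKUT1. AXIN2, a feedback inhibitor, was 59.99 in RKN and 1.41 in SKUT1 (4.66). TNFRSF19, a receptor of the TNF family, was 119.9 in RKN and 0.554 in SKUT1 (6.28). MYC was 84.996 in RKN and 16.6 in SKUT1 (2.28), also higher in RKN. CCND1, cyclin D, went the other way, 39.8 in RKN and 537 in SKUT1 (-3.72). Among ligands, RSPO4, an R-spondin that enhances WNT signalling, was 8.05 in RKN and was listed at 0 in SKUT1, and WNT5A, a ligand of the noncanonical branch, was 0.0771 in RKN and 22.7 in SKUT1.

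Other growth factor systems leaned toward SKUT1. In the insulin-like growth factor list 12 of 21 were 4-fold higher there (median -2.44, -2.22 with equal sums). The binding protein IGFBP3 was 1.39 in RKN and 3096 in SKUT1, and IGFBP5 was 9.30 in RKN and 232 in SKUT1. In the PDGF, VEGF and angiopoietin list 11 of 18 were 4-fold higher in SKUT1. VEGFC, a lymphatic growth factor, was 0.0158 in RKN and 152 in SKUT1, and PDGFRA, a PDGF receptor, was 0.0558 in RKN and 136 in SKUT1. Fibroblast growth factors had the same direction as these: FGF7 was listed at 0 in RKN and stood at 64.2 in SKUT1, and FGF5 was 0.154 in RKN and 28.7 in SKUT1. The receptor FGFR4 was opposite, 21.1 in RKN and 0.0718 in SKUT1. GAS6, the ligand of AXL, was 5.13 in RKN and 277 in SKUT1, and AXL itself was 20.9 in RKN and 195 in SKUT1. MET, the receptor of hepatocyte growth factor, was higher in RKN, 40.3 in RKN and 9.72 in SKUT1. Targets of the Hippo effectors YAP and TAZ were 2-fold higher in SKUT1 in 16 of 24 (median -1.67, -1.22 with equal sums). ANKRD1, a common reporter of YAP, was 0.117 in RKN and 204 in SKUT1, and CYR61 was 20.4 in RKN and 565 in SKUT1.

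Guidance molecules differed by family. In the list of semaphorins, slits and netrins 13 of 31 were 4-fold higher in SKUT1 (median -1.36, -0.92 with equal sums). NTN4, a netrin, was 0.0174 in RKN and 289.6 in SKUT1, and SLIT3 was 3.68 in RKN and 167 in SKUT1. Ephrins and their receptors leaned to RKN, with a median of 0.88 as deposited and 1.12 with equal sums. The receptor EPHB2 was 11.3 in RKN and 0.298 in SKUT1, whereas EPHA5 was listed at 0 in RKN and stood at 50.9 in SKUT1.

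Mediators of inflammation did not share a direction, while complement and the enzymes of prostaglandin synthesis leaned to SKUT1. Prostaglandins are made from membrane lipid by phospholipases, cyclooxygenases and terminal synthases. On that list 11 of 20 were 4-fold higher in SKUT1 and none in RKN (median -2.20, -2.04 with equal sums). The phospholipase PLA2G4A was listed at 0 in RKN and stood at 64.8 in SKUT1. The cyclooxygenase PTGS1 was 0.155 in RKN and 46.6 in SKUT1, and PTGS2 was listed at 0 in RKN and stood at 27.9 in SKUT1. PTGIS, prostacyclin synthase, was 0.0878 in RKN and 132 in SKUT1, so each named step of the chain was higher in SKUT1. With equal sums 14 were 2-fold higher in SKUT1 and 3 in RKN. Complement genes were 2-fold higher in SKUT1 in 12 of 18 and in RKN in none as deposited, and in 10 and 3 with equal sums. C1S, a protease of the classical pathway, was 1.59 in RKN and 287 in SKUT1, and the surface inhibitor CD59 was 19.7 in RKN and 463 in SKUT1.

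Cytokines were even, 9 of 22 being 2-fold higher in RKN and 9 in SKUT1. CXCL12, a chemokine of stromal cells, was listed at 0 in RKN and stood at 214 in SKUT1, and IL6 was 0.0606 in RKN and 111 in SKUT1. IL18, a cytokine released by inflammasomes, was 32.8 in RKN and 0.264 in SKUT1. Several chemokines stood with IL18: PF4V1, CXCL1, CXCL5, CXCL3 and CXCL2 were neighbours on chromosome 4 and all 2-fold higher in RKN. CXCL1 was 43.8 in RKN and 1.65 in SKUT1, and CXCL3 was 15.3 in RKN and 0.0863 in SKUT1.

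Organelles of the secretory and degradative route were shifted by smaller amounts across many genes. Of 46 lysosomal genes, 32 were 2-fold higher in SKUT1 and 1 in RKN (median -1.56, -1.13 with equal sums). CTSB, cathepsin B, was 56.3 in RKN and 785 in SKUT1 (13.9-fold), and LAMP1, a lysosomal membrane protein, was 27.8 in RKN and 328 in SKUT1 (11.8-fold). In the list of the unfolded protein response and endoplasmic reticulum folding, 22 of 34 were 2-fold higher in SKUT1 and none in RKN. Its median was -1.35 as deposited and -0.89 with equal sums. P4HB, protein disulfide isomerase, was 243 in RKN and 1159.8 in SKUT1, and XBP1, a transcription factor of this response, was 32.1 in RKN and 146 in SKUT1. Targets of NRF2, the regulator of antioxidant defence, had a median of -1.14 that was -0.67 with equal sums. SLC7A11, the cystine transporter, was 3.23 in RKN and 25.03 in SKUT1. Glycolysis and hypoxia genes had a median of -0.70 (-0.28 with equal sums), although NDRG1, a stress gene induced by hypoxia, was 3.27 in RKN and 123 in SKUT1.

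In the other direction, the genes with the largest differences toward RKN were of diverse kinds. ALDH1A1, which makes retinoic acid from retinaldehyde, was 1108 in RKN and 0.132 in SKUT1, a difference of 9.94. GCG, proglucagon, was 84.4 in RKN and was listed at 0 in SKUT1. BARX1, a homeobox factor, was 60.97 in RKN and was listed at 0 in SKUT1. PRAME, a cancer-testis antigen, was 45.3 in RKN and was listed at 0 in SKUT1. Of these, GCG and BARX1 stood at 0.0362 or less in SKLMS1 and SKN too. DDIT4L, an inhibitor of mTOR signalling, was 121 in RKN and 0.656 in SKUT1. PPAP2C, a lipid phosphatase, was 84.1 in RKN and 0.346 in SKUT1 (5.98). MARCKSL1, a substrate of protein kinase C, was 313 in RKN and 7.16 in SKUT1 (5.27). CDCA7, a chromatin protein, was 37.1 in RKN and 0.224 in SKUT1 (4.96).

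Among genes at 10 or more in both lines, the largest differences toward RKN were smaller than those toward SKUT1. IL13RA2, a decoy receptor of interleukin 13, was 351 in RKN and 11.9 in SKUT1 (29.4-fold). MDK, midkine, a heparin-binding growth factor, was 296 in RKN and 10.9 in SKUT1 (27.2-fold). STMN1, which destabilizes microtubules, was 1189 in RKN and 83.8 in SKUT1 (14.2-fold). STMN1 and LMNB1 are commonly high in dividing cells. LMNB1, a lamin, was 153 in RKN and 11.5 in SKUT1 (13.3-fold). ENC1, an actin-binding protein, was 143 in RKN and 10.9 in SKUT1 (13.1-fold).

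Mitosis genes were higher in RKN almost throughout. Of 60 genes, 55 were 2-fold higher in RKN, against 19.1% of all kept genes, and 30 were 4-fold higher, against 5.38%. None was 2-fold higher in SKUT1. The median was 1.99, and with equal sums it was 2.43, with all 60 genes 2-fold higher in RKN. CDC20, which activates the anaphase promoting complex, was 223 in RKN and 18.4 in SKUT1 (12.1-fold). PLK1, a mitotic kinase, was 116 in RKN and 12.3 in SKUT1 (9.44-fold). CCNB1, cyclin B, was 165 in RKN and 21.1 in SKUT1 (7.82-fold). Unlike most matrix genes, these were expressed in both lines, and the list summed to 4265 FPKM in RKN and 949.8 in SKUT1. CKS2, a subunit of cyclin-dependent kinases, was 482 in RKN and 52.7 in SKUT1 (9.15-fold). NEK2, a centrosome kinase, was 46.1 in RKN and 3.44 in SKUT1, and CDC25C, the phosphatase that activates the mitotic kinase, was 26.4 in RKN and 2.62 in SKUT1.

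Promoters of mitosis genes are shown because many carry a short cell cycle element, the CHR element TTTGAA, near the start. On either strand it was found in 34 of 49 mitosis promoters in the table (69.4%), in 9.49% of all 9316 and in 2 of 49 replication promoters (4.08%). Within 60 bases before and 10 after the start it was found in 23 of the 49 (46.9%) and in 1.95% of all. The promoters of PLK1 (chr16:23678639-23678938, plus strand) and CCNB2, another cyclin B (chr15:59104896-59105195, plus strand), follow with the element in capitals, at position -29 in each.
PLK1: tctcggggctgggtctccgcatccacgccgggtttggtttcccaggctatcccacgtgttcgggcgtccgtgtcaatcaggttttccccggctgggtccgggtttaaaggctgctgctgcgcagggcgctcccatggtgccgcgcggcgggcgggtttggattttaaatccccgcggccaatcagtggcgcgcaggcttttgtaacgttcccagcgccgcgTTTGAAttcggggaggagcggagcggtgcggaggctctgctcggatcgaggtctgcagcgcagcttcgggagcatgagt
CCNB2: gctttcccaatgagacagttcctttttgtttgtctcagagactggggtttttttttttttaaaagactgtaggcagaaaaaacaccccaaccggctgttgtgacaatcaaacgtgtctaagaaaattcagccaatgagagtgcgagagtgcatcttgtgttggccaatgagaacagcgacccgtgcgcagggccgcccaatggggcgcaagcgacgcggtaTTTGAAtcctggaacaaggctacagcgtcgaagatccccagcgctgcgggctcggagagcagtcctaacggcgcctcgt
CCNB2 is shown for its motif and not for its size, and was 106 in RKN and 15.2 in SKUT1. Over all genes the element was little tied to the direction, since it was found in 51 of 392 promoters of genes 4-fold higher in RKN and in 101 of 992 of those 4-fold higher in SKUT1.

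DNA replication genes followed with smaller differences. Of 56, 43 were 2-fold higher in RKN and none in SKUT1 (median 1.46, 1.91 with equal sums). TYMS, thymidylate synthase, was 282 in RKN and 49.6 in SKUT1 (5.67-fold). ORC6, of the origin recognition complex, was 55.2 in RKN and 10.8 in SKUT1 (5.13-fold). DBF4, which activates the replication kinase CDC7, was 19.5 in RKN and 2.78 in SKUT1. Homologous recombination and Fanconi genes were 2-fold higher in RKN in 19 of 40 and in SKUT1 in none, with a median that passed 1 only with equal sums (0.97 and 1.37). XRCC3, which assists strand exchange, was 18.8 in RKN and 2.20 in SKUT1. Enzymes of histone and DNA methylation were 2-fold higher in RKN in 14 of 43, against 19.1% of all kept genes, and in SKUT1 in 2. With equal sums 22 were 2-fold higher in RKN, against 29.8%, and the median went from 0.63 to 1.03. EZH2, the methyltransferase of Polycomb, was 38.4 in RKN and 5.28 in SKUT1, and DNMT3B, which methylates DNA, was 7.67 in RKN and 0.578 in SKUT1.

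Regulators of entry into the cycle differed gene by gene. Of 28 such genes 10 were 2-fold higher in RKN and 4 in SKUT1 (median 0.67, 1.09 with equal sums). CDKN2A, the locus of the p16 and ARF inhibitors, was 326 in RKN and 16.4 in SKUT1 (19.9-fold). RB1, which restrains the E2F factors, was 0.752 in RKN and 18.8 in SKUT1. E2F2 was 7.72 in RKN and 0.581 in SKUT1. RKN thus combined a high CDKN2A with a low RB1. On the SKUT1 side, CDKN1A, the inhibitor induced by p53, was 5.92 in RKN and 348 in SKUT1. CDK6, the partner kinase of CCND1, was 0.164 in RKN and 13.7 in SKUT1. The p53 target list as a whole had a median of -0.09 (0.31 with equal sums). PLK2, a polo kinase of that list, was 158 in RKN and 7.12 in SKUT1, and PHLDA3, an inhibitor of AKT, was 4.48 in RKN and 75.9 in SKUT1.

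HOX genes, which carry positional identity along the body axis, differed by cluster. Of 10 kept HOXB members 9 were 4-fold higher in RKN (median 3.27, 3.53 with equal sums). HOXB7 was 22.02 in RKN and 0.282 in SKUT1, HOXB6 was 12.9 in RKN and 0.0555 in SKUT1, and HOXB9 was 9.75 in RKN and 0.0491 in SKUT1. The neighbouring gene PRAC was 87.7 in RKN and was listed at 0 in SKUT1. HOXB2, at the edge of the cluster, was 8.25 in RKN and 9.86 in SKUT1 and is named after its value was seen. In the order of the annotation, 11 neighbouring kept genes from HOXB3 to HOXB13, with antisense transcripts and PRAC, were all 2-fold higher in RKN, and 10 of them 4-fold.

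HOXA and HOXC genes leaned the opposite way, except at their ends. HOXC genes were 2-fold higher in SKUT1 in 5 of 8 (median -1.65, -1.28 with equal sums), HOXC8 being 1.72 in RKN and 33.7 in SKUT1. HOXC10 was 6.98 in RKN and 55.9 in SKUT1. HOXA genes were 2-fold higher in SKUT1 in 5 of 9 (median -1.17, -0.91 with equal sums), HOXA9 being 0.256 in RKN and 9.53 in SKUT1. HOXA10 was 3.08 in RKN and 16.4 in SKUT1. HOXD genes had no clear direction. Their median was 0.54 (0.82 with equal sums, against 0.41 for all kept genes), but they summed to 12.3 FPKM in RKN and 20.2 in SKUT1. Of 7 genes 2 were 2-fold higher in RKN, against 19.1% of all kept genes, and 1 in SKUT1, against 24.5%. The latter was HOXD8, which was 2.27 in RKN and 14.6 in SKUT1. The terminal genes of each cluster were higher in RKN: HOXA13 was 1.31 in RKN and 0.0531 in SKUT1, HOXB13 was 9.49 in RKN and was listed at 0 in SKUT1, HOXC13 was 5.64 in RKN and 0.0746 in SKUT1, and HOXD13 was 1.55 in RKN and was listed at 0 in SKUT1. That grouping was chosen after the values were seen, and all 4 were below 10 FPKM.

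**Figure D4:**
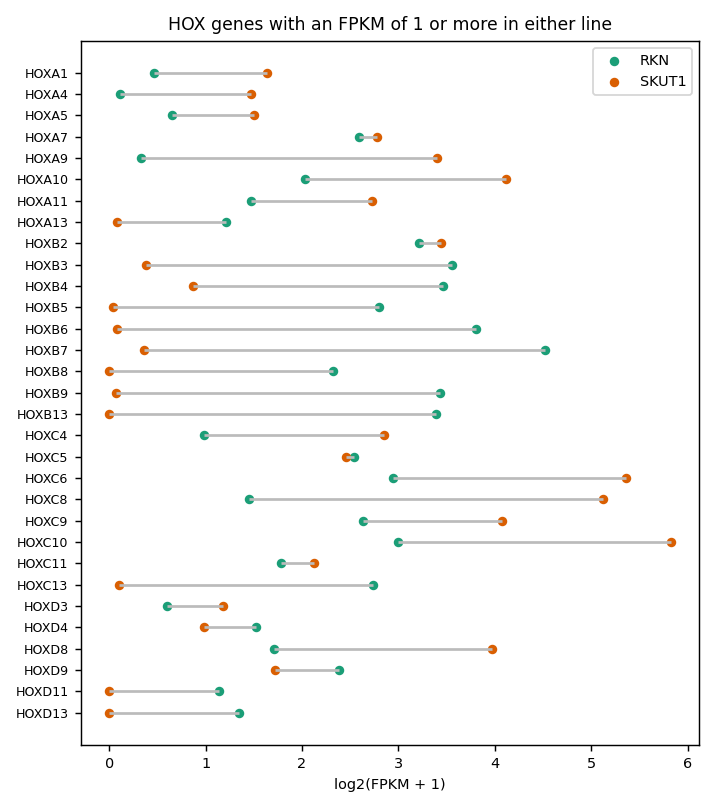
Levels of the HOX genes that reached an FPKM of 1 in a line, in RKN (green) and SKUT1 (orange) as log2(FPKM + 1), as deposited, ordered by cluster and number. HOXB3 to HOXB13 are expressed in RKN and near 0 in SKUT1, while most HOXA and HOXC genes are higher in SKUT1.

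Metallothioneins bind zinc, copper and cadmium and are induced by metals. Of 8 kept genes 6 were 2-fold higher in RKN and 1 in SKUT1 (median 2.91, 3.36 with equal sums). MT2A was 3765 in RKN and 1567 in SKUT1 (2.40-fold), and MT1X was 792 in RKN and 40.8 in SKUT1 (19.4-fold). MT1M was 288 in RKN and 4.20 in SKUT1, MT1A was 111 in RKN and 0.431 in SKUT1, MT1F was 74.8 in RKN and 4.18 in SKUT1, and MT1L was 151 in RKN and 38.2 in SKUT1. The exceptions were MT1G, which was 1.25 in RKN and 1.08 in SKUT1, and MT1E, which was listed at 0 in RKN and stood at 78.9 in SKUT1. These genes are near-identical neighbours, so the split among them is uncertain. Their summed FPKM was 5184 in RKN and 1735 in SKUT1. The promoter of MT1X (chr16:56682220-56682519, plus strand) is shown for the core of the metal response element, TGCACNC or TGCGCNC, of which it holds 4 matches over both strands, in capitals.
MT1X: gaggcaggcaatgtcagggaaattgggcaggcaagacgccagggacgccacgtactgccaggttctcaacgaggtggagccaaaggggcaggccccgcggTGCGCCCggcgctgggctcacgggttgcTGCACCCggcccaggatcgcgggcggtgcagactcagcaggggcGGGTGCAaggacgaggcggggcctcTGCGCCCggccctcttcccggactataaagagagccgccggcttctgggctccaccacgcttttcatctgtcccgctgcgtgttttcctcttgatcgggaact
This short core is common, and 39.3% of the 9316 promoters hold at least 1 match.

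Retinoid genes were divided around ALDH1A1. RBP7, an intracellular retinol binding protein, was 55.04 in RKN and 0.0911 in SKUT1. Another retinaldehyde dehydrogenase, ALDH1A3, was 0.315 in RKN and 16.04 in SKUT1, and the retinol dehydrogenase RDH10 was 1.63 in RKN and 26.2 in SKUT1. Over the list 7 of 19 were 2-fold higher in RKN and 9 in SKUT1, so ALDH1A1 and RBP7 did not stand for the list.

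Antiviral genes were divided as well. Of 43 interferon-stimulated genes, 16 were 2-fold higher in RKN and 6 in SKUT1, with a median of 0.10 (0.57 with equal sums). IFIH1, a sensor of viral RNA, was 26.3 in RKN and 0.313 in SKUT1 (4.38). OAS3, an oligoadenylate synthetase, was 25.1 in RKN and 0.356 in SKUT1 (4.26). The cytidine deaminases APOBEC3B, APOBEC3C, APOBEC3D, APOBEC3F and APOBEC3G, neighbours on chromosome 22 that share sequence, were all 2-fold higher in RKN. APOBEC3B was 31.6 in RKN and 2.99 in SKUT1, and APOBEC3G was 16.3 in RKN and 1.18 in SKUT1. Of the genes that present antigen, HLA-B was 10.3 in RKN and 0.209 in SKUT1, and HLA-C was 0.0429 in RKN and 4.82 in SKUT1. HLA genes are polymorphic and alike, and reads were placed on a reference sequence, so these levels are uncertain.

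Short RNAs and loci named only by a LOC number made up 113 of the 690 genes higher in RKN and 32 of the 1397 higher in SKUT1. The LOC loci were 8 of those in RKN and 19 of those in SKUT1. Small nucleolar RNAs guide the modification of other RNAs and lie mostly in introns of host genes. Of 40 kept box C/D genes (SNORD), 34 were 4-fold higher in RKN and 1 in SKUT1, and of 63 box H/ACA genes (SNORA), 42 and 1. SNORD76 was 2721 in RKN and was listed at 0 in SKUT1, and SNORD80 was 1458 in RKN and was listed at 0 in SKUT1. Libraries of poly(A) RNA measure such short RNAs poorly, and a few reads on a short transcript give a high FPKM. Host genes (SNHG) were 4-fold higher in RKN in 5 of 13 and in SKUT1 in none, SNHG1 being 119 in RKN and 10.6 in SKUT1 (11.3-fold). Without short RNAs and LOC loci, a choice made after seeing the data, the counts of 4-fold genes were smaller in both lines, and most of each remained.

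Families defined by symbol alone were searched for others of the kind. There were 227 symbol roots with 8 or more kept genes. As deposited, 17 had a share of genes 4-fold higher in RKN at least 3 times that of all genes, and 23 did so for SKUT1. Some RKN roots passed on 2 genes, such as CDKN and CHST, and others hold short RNAs, such as SNORD and SNORA. A shared root does not always mark a family. Histone genes (HIST) were 4-fold higher in RKN in 7 of 24 and 2-fold in 19, with none 2-fold higher in SKUT1. HIST1H2BD was 84.1 in RKN and 9.03 in SKUT1. Most histone transcripts lack a poly(A) tail, and these libraries were made from poly(A) RNA. Kinesins (KIF), the motors of the spindle among them, were 4-fold higher in RKN in 7 of 30, against 5.38% of all kept genes, and in SKUT1 in none. At 2-fold 14 were higher in RKN and 3 in SKUT1. Some of them, such as KIF2C and KIF4A, are also on the mitosis list. SOX factors were 4-fold higher in RKN in 3 of 8, SOX4 being 28.4 in RKN and 3.62 in SKUT1.

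Zinc finger genes (ZNF), many of them repressors, were the family with the most members. Of 453 kept, 125 were 2-fold higher in RKN and 23 in SKUT1, against 19.1% and 24.5% of all kept genes. The median was 0.57 (0.91 with equal sums), against -0.01 (0.41) for all kept genes. At 4-fold the numbers were 20 and 6, a smaller share in each direction than over all genes. With equal sums 45 were 4-fold higher in RKN (9.93%), near the 8.19% of all genes. Neighbours were 2-fold higher in RKN in runs, of which 1 on chromosome 19 held 8 genes from ZNF429 to ZNF681, and 1 on chromosome 7 held 6 from ZNF736 to ZNF117. ZNF43, of the first, was 15.6 in RKN and 1.60 in SKUT1, and ZNF138, of the second, was 9.62 in RKN and 1.09 in SKUT1. Zinc finger genes of a run share sequence, so their split is uncertain.

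Basic machinery differed little as deposited. Mitochondrial ribosomal proteins were 2-fold higher in RKN in 18 of 73, against 19.1% of all kept genes, and in SKUT1 in none. With equal sums 41 were 2-fold higher in RKN, against 29.8%, and the median went from 0.66 to 1.12. Proteasome genes had a median of 0.18 (0.65 with equal sums), respiratory complex I of 0.25 (0.71) and cytosolic ribosomal proteins of 0.30 (0.77). UBB, a ubiquitin gene, was 0.232 in RKN and 718 in SKUT1. Ubiquitin genes share repeats, so this level is uncertain. COX7A1, the muscle form of a cytochrome oxidase subunit, was listed at 0 in RKN and stood at 131 in SKUT1, apart from other respiratory genes.

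By position, chromosome 13 stood away from the rest. Its 223 kept genes had a median difference of -1.05 (-0.68 with equal sums), with 50 genes 4-fold higher in SKUT1 and 4 in RKN. The medians of the other chromosomes ran from -0.29 on chromosome 18 to 0.42 on chromosome 19, and from 0.13 to 0.81 with equal sums. Several runs of neighbours there were 2-fold higher in SKUT1 throughout, among them MED4, ITM2B, RB1, LPAR6, RCBTB2 and FNDC3A. ITM2B, a membrane protein, was 23.7 in RKN and 455 in SKUT1. On chromosome 2, ITGAV, FAM171B, TFPI, GULP1, COL3A1 and COL5A2 formed such a run. TFPI, an inhibitor of coagulation, was 4.13 in RKN and 32.7 in SKUT1. No copy number was measured here, and the part of gene dosage was not tested.

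**Figure D5:**
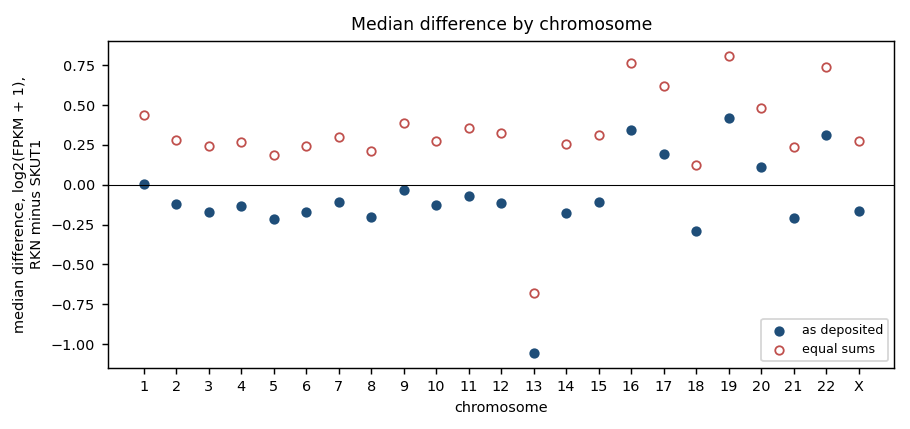
Median difference of the kept genes of each chromosome, RKN minus SKUT1 on the log2(FPKM + 1) scale, as deposited (filled) and with equal sums (open). Chromosome 13 is the lowest at -1.05 and -0.68, and the others lie between -0.29 and 0.42 as deposited.

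SKLMS1 and SKN show which side of each difference is shared. Of the 1397 genes 4-fold higher in SKUT1, 661 (47.3%) had both other lines nearer to RKN, 308 had both nearer to SKUT1 and 428 had 1 nearer each. Of the 690 genes 4-fold higher in RKN, 218 had both nearer to RKN, 278 (40.3%) both nearer to SKUT1 and 194 had 1 nearer each. SKUT1 exceeded both other lines 4-fold as well in 557 of its 1397 genes, and RKN did so in 188 of its 690. CDC20 was 169.0 in SKLMS1 and 149.1 in SKN, near RKN. MFAP5, a microfibril gene, was 0.0364 in SKLMS1 and 0.0441 in SKN, also near RKN. ALDH1A1 was 0.765 in SKLMS1 and 0.0546 in SKN, near SKUT1.

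The genes higher in each line also differed in composition. The longest GENCODE release 29 transcript of genes 4-fold higher in RKN had a median GC content of 54.2% and a length of 2513 bases, against 47.6% and 4238 bases for those higher in SKUT1. For genes not 4-fold apart the medians were 48.2% and 3612 bases. Across 11892 genes Spearman's rho of the difference was 0.13 with GC content and -0.18 with length, and across 4693 genes at 10 or more in both lines it was 0.04 and -0.16. Single lists lay on either side of these medians. The median GC content was 56.5% for elastic fibre genes and 47.4% for integrins, both higher in SKUT1, and it was 44.1% for mitosis genes and 55.3% for HOXB genes, both higher in RKN. The part of library composition and RNA quality in the differences was not tested.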

How the data were processed

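The authors deposited a table of FPKM per gene symbol with 1 column per line. Per the labels' protocols, RNA came from an RNeasy Plus kit and mRNA libraries were built with a TruSeq Stranded kit and read on a NextSeq 500. Per the submitters' processing notes, STAR, Cufflinks and hg19 were used. Versions, annotation, filters and strand setting were not given in the sources used here. Of 23610 rows, 28 with symbols turned into dates and 5 with spreadsheet errors were left out.

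From the FPKM, differences of log2(FPKM + 1) were computed with Python 3.11.15 and pandas 2.3.3 for genes at 1 or more in either line. Equal sums means that both columns were multiplied to the mean of their sums, RKN by 1.19 and SKUT1 by 0.861. Gene lists, families by symbol root, runs of neighbours (RefSeq order, 98.0% of kept genes matched), promoters (72.7% matched) and transcripts were then described. The script was tested on simulated data.

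The members and the gene lists were chosen with earlier results of these data known. The genes named are the 15 with the largest difference per direction among those at 10 FPKM or more in the higher line, the 10 among those at 10 or more in both, up to 6 per list (all in lists of 8 or fewer), and members of families and runs. Read totals were estimated from low values, of which 63.6% in RKN and 62.2% in SKUT1 lay within 0.1 of a whole read, so they are rough. Alternatives covered scaling, the added constant, the filter and the fold. With 1 library per line no spread between cultures is known. Some genes that the rule covers are not reported here.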

Additional observations from a re-analysis of the deposited data

How the results depend on the processing

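As deposited, 690 genes were 4-fold higher in RKN and 1397 in SKUT1, a share of 66.9% for SKUT1. The RKN count was 1050 with equal sums, 1415 on the TPM scale, 1389 with 0.1 added, 222 with 5 added and 268 at 8-fold. The SKUT1 count was 751 with 5 added and 734 at 8-fold. The share was 51.8% with equal sums, 77.2% with 5 added and 48.9% on the TPM scale, where RKN had more. Spearman's rho, 0.641, was 0.858 with no filter and 0.522 with genes at 5 or more. Without short RNAs and LOC loci, a setting added after seeing the data, the share was 70.3%. Of list medians at 1 or more in size, those that crossed 0 were potassium channels with no filter (0.011) and, among members at 1 or more in both lines, matrix metalloproteinases (0.29), syndecans and glypicans (0.36), TGF-beta and activin ligands (0.21), BMP ligands (0.14), HOXB (-0.23), cadherins (1.41) and clustered protocadherins (0.022). That last setting drops every gene near 0 in a line. Smaller medians crossed 0 with equal sums for p53 targets (0.31), other homeobox (0.33), S100 (0.28), cholesterol synthesis (0.08), desmosome and tight junction (0.06) and ubiquitin genes (0.10), and for the same lists on the TPM scale. All of these stayed below the median of all kept genes, which moved to 0.41 with equal sums and 0.43 on the TPM scale. Equal sums took 10 list medians below 1 in size, among them WNT receptors, HOXA, NRF2 targets and the unfolded protein response, and raised 6 to 1 or more. The 50 genes of largest difference stayed 4-fold apart in every setting that kept them. Of these, 7 have a 0 that the filter on values above 0 in both lines removes. All 50 were picked from the same values for their large differences. Their staying 4-fold apart was thus nearly fixed by the choice and is no check of robustness. No paired analysis was possible because each line has 1 library. Depth limits levels near those of single reads, 0.0148 FPKM in RKN and 0.0207 in SKUT1 on a transcript of 2 kb.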

Other observations

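Imprinted and oncofetal genes, described with no test, were 4-fold higher in SKUT1 in 7 of 19 and in RKN in 1 (median -1.72, -1.29 with equal sums). H19, a noncoding RNA expressed from the maternal allele, was 0.0282 in RKN and 207 in SKUT1. NDN, necdin, was 0.0175 in RKN and 28.97 in SKUT1, and MEG3, another maternally expressed RNA, was listed at 0 in RKN and stood at 8.35 in SKUT1. IGF2BP3, an oncofetal RNA-binding protein, was 12.8 in RKN and 0.0929 in SKUT1, the opposite direction. Nuclear receptors were 2-fold higher in SKUT1 in 10 of 23, against 24.5% of all kept genes, and in RKN in 2, against 19.1%. Their median was -0.47 as deposited and -0.02 with equal sums, so the list had no clear direction. The related orphan receptors NR2F1 and NR2F2 had opposite directions, NR2F1 being 69.6 in RKN and 2.89 in SKUT1 and NR2F2 4.49 in RKN and 32.2 in SKUT1. NR3C1, the glucocorticoid receptor, was 4.78 in RKN and 61.8 in SKUT1. OXTR, the oxytocin receptor of uterine muscle, was 0.257 in RKN and 38.3 in SKUT1.

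Annexins, which bind membranes in the presence of calcium, were 2-fold higher in SKUT1 in 7 of 9 and in RKN in 2. ANXA5 was 145 in RKN and 1719 in SKUT1 (11.8-fold), while ANXA3 was 30.3 in RKN and 0.376 in SKUT1. Among cytokine receptors 19 of 32 were 2-fold higher in SKUT1 and 4 in RKN (median -1.14, -0.82 with equal sums). With equal sums these counts were 15 and 5. In the TNF family TNFRSF11B, osteoprotegerin, was 3.86 in RKN and 812 in SKUT1, and CD70 was 12.1 in RKN and 0.0578 in SKUT1. Homeobox factors outside the HOX clusters were even, 19 of 53 being 2-fold higher in RKN and 18 in SKUT1. MEOX2, a mesodermal factor, was listed at 0 in RKN and stood at 38.1 in SKUT1, while MKX, a tendon factor, was 38.2 in RKN and 1.15 in SKUT1.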
